A study of Mus musculus with 4 samples.

Results

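The genes described here are the FOS and JUN families, which form the transcription factor AP-1, and 3 other genes of the immediate early response, Ier2, Ier3 and Dusp1. The rule lists them by name and uses no measured value. Of the 10 genes named (Fos, Fosb, Fosl1, Fosl2, Jun, Junb, Jund, Ier2, Ier3 and Dusp1), 9 matched a row by Ensembl identifier among 19840 genes in all. Fosl1 was not analysed here. An adjusted p-value was given for 8 of the 9, and Fosb, the least abundant, had none.

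The samples are mouse embryonic stem cells kept in the naive state of pluripotency in 2i/LIF, a culture with inhibitors of MEK and GSK3 and the cytokine LIF. The 2 groups had 2 libraries each, of cells that received a lentivirus with a control hairpin (shCtrl) or one targeting Lncenc1, a long noncoding RNA (shLincenc1), and then puromycin for 2 days. Both groups thus share infection and selection. Cells of the lines E14TG2a and R1 and 2 hairpins per target gene were used according to the protocols, and no library is tied to either by its labels, nor are the libraries of a group said to be separate cultures, so p-values measure a spread that may be technical. The authors' deposited table gives 1 comparison whose numerator is not stated. Its groups are named here by their level of Lncenc1: the Lncenc1-high libraries are H1 and H2 and the Lncenc1-low libraries L1 and L2. The numbers 1 and 2 order the libraries of a group by depth and are not the replicate numbers of the labels.

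AP-1 is a dimer of basic leucine zipper proteins. JUN proteins pair with each other or with FOS proteins, whereas FOS proteins need a JUN partner to bind DNA. Genes of the immediate early class are transcribed within minutes of a growth factor or stress signal without new protein synthesis, largely through the ERK, JNK and p38 kinase cascades, and their short-lived transcripts decay soon after. One of the inhibitors in 2i blocks MEK, the kinase that activates ERK.

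Read counts per library, recovered from the deposited means, summed to 26588031 reads in H1, 11014553 in H2, 11158035 in L1 and 10587101 in L2. All values per library below are such counts divided by the size factor of the library, called normalized reads. Lncenc1 itself had 6400 and 7250 normalized reads in H1 and H2 and 2126 and 2121 in L1 and L2. The 2 Lncenc1-low libraries stood apart from each other: over 11010 genes with a mean of at least 50, the SD of the log2 ratio between libraries was 0.62 for L1 against L2 and 0.33 for H1 against H2, with 0.51 to 0.64 for pairs across groups. All 10 markers of naive stem cells had reads, with summed levels of 81981 to 86098 normalized reads in the Lncenc1-high and 68511 to 72592 in the Lncenc1-low libraries. The log2 fold change was positive, that is higher in the Lncenc1-high group, in 10 of these 10. The summed levels were 171 to 180 against 250 to 413 for 7 of 10 fibroblast markers analysed, 741 to 812 against 982 to 1382 for 7 of 8 trophoblast markers, and 3291 to 4358 against 1170 to 2576 for 8 primitive endoderm markers. Lama1 alone made up most of the last sum: it had 3167, 4257, 2402 and 986 normalized reads in H1, H2, L1 and L2, and the log2 fold change was positive in 2 of the 8. Of the trophoblast markers 3 of 7 were positive, with Krt8 at 577 in L2 and 72.7 in L1, and Cdx2 at 40.0 and 87.8 in H1 and H2 but 2.46 and 19.8 in L1 and L2. Tfap2c was the largest part of the trophoblast sum, at 594, 299, 810 and 670 in H1, H2, L1 and L2. Fbn1 made up most of the fibroblast sum, at 140, 110, 324 and 174, and 0 of 4 tested fibroblast markers were positive. None of the tested markers in any of these lists had a DESeq2 adjusted p under 0.05. Among these lists, Col1a1 had at most 9 reads in a library and Foxa2 at most 1. Gata3 had 0, 0, 2 and 3 reads and Hand1 had 0, 0, 3 and 0 in H1, H2, L1 and L2. The part of the markers in the results below was not tested.

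None of the 8 tested genes differed between the groups at a DESeq2 adjusted p under 0.05 in the authors' deposited table, where 1.53% of all 14070 tested genes did, 0.505% higher in the Lncenc1-high and 1.02% higher in the Lncenc1-low group. At that background a count of 0 among 8 genes is not a result about them. At an unadjusted p under 0.05 there was 1, Jun, against 8.82% of all tested genes and 5.28% in the direction of Jun. Limma voom called 0 of the 8 and 0.0427% of 14042 genes. It had 0 of the 8 at an unadjusted p under 0.05, for which the share of all genes is not given here. A refit of the counts with library totals as size factors also called 0 of the 8, against 1.69% of 14042 genes. The deposited p-values, adjusted with no filter on low means, gave 0 of the 8 as well, against 0.897% of 19840 genes. The groups did not overlap in 1 of the 8, again Jun, and in 41.3% of 14047 tested genes. In Jun the Lncenc1-low libraries were the higher ones, as in 20.7% of tested genes, while 20.6% had the opposite order. The log2 fold change, given throughout as Lncenc1-high over Lncenc1-low, had a median of -0.43 over the 8 and -0.01 over all tested genes in the authors' deposited table. Libraries of the same group differed widely instead. At least a 2-fold difference between L1 and L2 was seen in 5 of the 8, against 22.7% of 8427 tested genes with means in the same range of 11.8 to 584 normalized reads. Between H1 and H2 it was seen in 3 of the 8, against 10.1% of those genes. In bulk RNA, fewer cells that express a gene and less RNA per cell cannot be told apart.

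**Figure D1:**
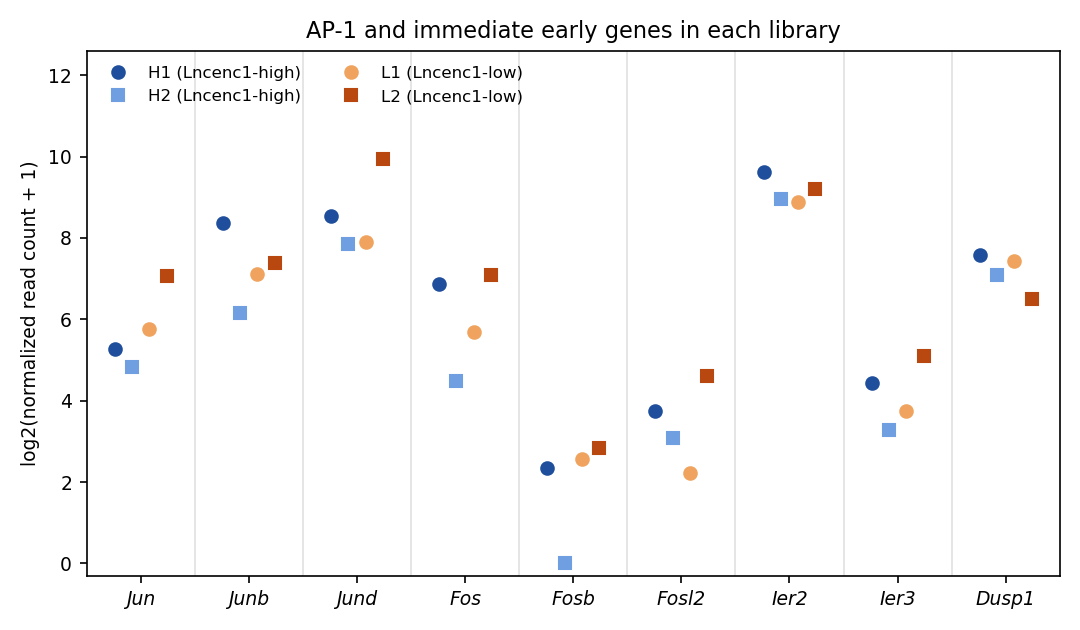
Normalized read count of each gene in each library, as log2(count + 1), with blue for the Lncenc1-high and orange for the Lncenc1-low libraries; each point is 1 library. Only Jun and Fosb have both orange points above both blue points, and in Fos and Junb the H1 and H2 points lie far apart.

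Among the JUN proteins, Jun, the strongest activator of the family and the first to be named, was the gene nearest to a group difference. Its promoter is known for a pair of AP-1-like sites through which JUN dimers act on their own gene. The RefSeq window of 300 bases around the start of Jun (chr4:95052173-95052472, minus strand, GRCm38.p6) is shown because Jun was the one gene whose tested groups did not overlap. Capitals mark TTACCTCA, which begins at -164 from the start, and TGACATCA, which begins at -45.
Jun promoter: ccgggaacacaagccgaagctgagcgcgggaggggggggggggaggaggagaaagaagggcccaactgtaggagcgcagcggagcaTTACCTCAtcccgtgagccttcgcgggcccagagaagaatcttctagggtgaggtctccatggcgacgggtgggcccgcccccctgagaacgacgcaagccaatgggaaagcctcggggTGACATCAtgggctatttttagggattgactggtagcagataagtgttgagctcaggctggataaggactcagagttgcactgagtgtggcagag
Searched on both strands, TGACATCA was in 3.62% and TTACCTCA in 0.889% of all 32851 promoter windows of this length. Jun was the 1 of the 8 genes with a window that had either. Both strings were searched as the known sites of Jun, so a match there was fixed in advance. The consensus AP-1 site TGACTCA was in none of the 8 windows and in 5.20% of all. A match is a run of letters and does not show binding.

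Jun had 37.5 normalized reads in H1, 27.6 in H2, 53.0 in L1 and 132 in L2. Both Lncenc1-low libraries were thus above both Lncenc1-high ones, L1 by a small margin and L2 by a large one. The counting intervals of H1 (29.4 to 47.1) and L1 (38.3 to 71.4) overlapped (exact Poisson, 95%, counting error only). The means were 92.6 ± 56.0 (SD, n = 2) in the Lncenc1-low and 32.5 ± 6.98 (SD, n = 2) in the Lncenc1-high group. In the authors' deposited table the log2 fold change of Jun was -1.50 ± 0.63 (SE), which is 2.82-fold higher in the Lncenc1-low group, with an unadjusted DESeq2 p of 0.0178 and an adjusted p of 0.356. Refits of Jun gave -0.69 without L2, -1.31 without H2, -1.75 without H1 and -2.01 without L1. With library totals as size factors the value was -1.54. Jun overlaps an antisense transcript, Junos, which had 6, 0, 4 and 0 reads in H1, H2, L1 and L2. The strand setting of the counting is not given, so reads of Jun and Junos cannot be told apart where they overlap.

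Jund, the JUN protein that is expressed steadily in resting cells, had 370 normalized reads in H1, 228 in H2, 239 in L1 and 978 in L2. L2 alone was high, at 4.09 times the level of L1, and L1 lay between H1 and H2. The authors' deposited table gives Jund a log2 fold change of -1.02 ± 0.97 (SE), with a DESeq2 adjusted p of 0.949 and a 95% interval from -2.92 to 0.88. Without L2 the refitted value was 0.32. The antisense gene model that overlaps Jund was not analysed here.

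Junb, a JUN protein that restrains proliferation in many cell types, showed another order. It had 332 normalized reads in H1, 70.3 in H2, 137 in L1 and 167 in L2. H1 was 4.72 times as high as H2, and both Lncenc1-low libraries lay between them. The log2 fold change of Junb in the authors' deposited table was 0.42 ± 0.55 (SE), with a DESeq2 adjusted p of 0.983. It was -1.11 in the refit without H1 and 1.13 without H2.

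Fos, the classical immediate early partner of JUN proteins, had the largest fold between H1 and H2 among the 8 tested genes. Its window (chr12:85473640-85473939, plus strand, GRCm38.p6) is shown for its known site for the cAMP-responsive factor CREB, next to the TATA box. Capitals mark TGACGT, the core of that site, beginning at -66, and TATAAA, beginning at -33.
Fos promoter: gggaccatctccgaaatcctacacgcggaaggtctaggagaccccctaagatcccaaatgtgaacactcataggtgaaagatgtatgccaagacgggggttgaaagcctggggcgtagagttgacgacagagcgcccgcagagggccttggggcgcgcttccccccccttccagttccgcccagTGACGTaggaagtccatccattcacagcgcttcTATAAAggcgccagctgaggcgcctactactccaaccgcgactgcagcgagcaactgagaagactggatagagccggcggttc
TGACGT was in 7.51% of all windows and, among the 8 genes with a window, in those of Fos and Dusp1. TATAAA was in 13.6% of all windows, and among these 8 in those of Fos and Junb. In Junb it began at position 1, at the start itself and not before it as in Fos. The CArG box, which the serum response factor binds, was in none of the 8 windows and in 1.63% of all. The windows begin 250 bases before the start, and sites further upstream were not searched. The absence of a match thus does not show that a gene lacks such a site.

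Fos had 116 normalized reads in H1, 21.3 in H2, 50.5 in L1 and 136 in L2. H1 exceeded H2 by 5.44 times and L2 exceeded L1 by 2.69 times, and the groups overlapped. The counting intervals of H1 (101 to 132) and H2 (12.4 to 34.1) did not overlap (exact Poisson, 95%, counting error only). Fos stood at -0.42 ± 0.71 (SE), DESeq2 adjusted p 0.995, in the authors' deposited table. Its sign turned without H2 (0.32) and without L2 (0.46), and the value was -2.13 without H1.

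The other FOS genes were close to the limit of detection. Fosb, whose truncated form accumulates in neurons after repeated stimulation, had 8, 0, 4 and 5 reads in H1, H2, L1 and L2. The 0 in H2 allows up to 3 reads, or 3.76 normalized reads. Its groups did not overlap, at 4.11 and 0 normalized reads against 4.93 and 6.18, a gap of less than 1 read in L1. The log2 fold change of Fosb in the authors' deposited table, -1.34 ± 2.27 (SE), had an unadjusted p of 0.554 and no adjusted one. Fosl2, which codes for FRA2 and lacks the strong activation domain of FOS, had 24, 6, 3 and 19 reads, or 12.3, 7.53, 3.70 and 23.5 normalized reads. Its highest and lowest library were both in the Lncenc1-low group. Fosl2 was given -0.44 ± 1.32 (SE) with a DESeq2 adjusted p of 0.999 in the authors' deposited table, and 1.44 without L2.

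**Figure D2:**
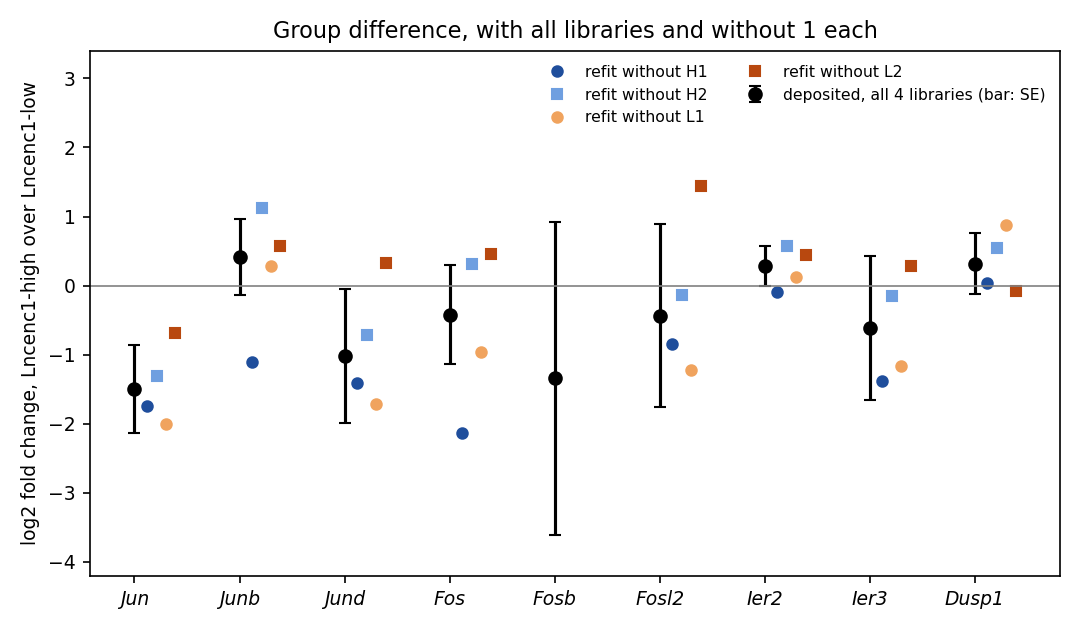
Log2 fold change of each gene, Lncenc1-high over Lncenc1-low: black points with bars are the deposited values ± SE, and coloured points are negative binomial refits that leave out the library of that colour. Jun is below 0 in every refit, from -2.01 to -0.69, which is fixed in advance because its groups do not overlap. Fos, Fosl2, Junb, Jund, Ier2, Ier3 and Dusp1 have refits on both sides of 0. Fosb was not refitted.

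Ier2, a nuclear immediate early protein, was the most even of the genes and the one measured with the smallest error. It had 784 normalized reads in H1, 494 in H2, 471 in L1 and 587 in L2. The groups overlapped, and in neither group did the libraries differ by more than 1.59 times. In the authors' deposited table Ier2 had a log2 fold change of 0.28 ± 0.29 (SE), with a DESeq2 adjusted p of 0.970 and a 95% interval from -0.29 to 0.85.

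Ier3, an immediate early gene linked to cell survival, had 20.5 normalized reads in H1, 8.78 in H2, 12.3 in L1 and 33.4 in L2. H1 was above L1, and L2 was highest, as in Fos. The authors' deposited table lists -0.61 ± 1.05 (SE) for Ier3, with a DESeq2 adjusted p of 0.995, and the refit without L2 gave 0.28.

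Dusp1 codes for the nuclear phosphatase MKP-1, which switches off JNK, p38 and ERK. Its window (chr17:26508423-26508722, minus strand, GRCm38.p6) is shown because it was the 1 of the 8 windows with a full cAMP response element. Capitals mark that element, TGACGTCA, beginning at -143, in which TGACGT is read on both strands, and another TGACGT beginning at -191.
Dusp1 promoter: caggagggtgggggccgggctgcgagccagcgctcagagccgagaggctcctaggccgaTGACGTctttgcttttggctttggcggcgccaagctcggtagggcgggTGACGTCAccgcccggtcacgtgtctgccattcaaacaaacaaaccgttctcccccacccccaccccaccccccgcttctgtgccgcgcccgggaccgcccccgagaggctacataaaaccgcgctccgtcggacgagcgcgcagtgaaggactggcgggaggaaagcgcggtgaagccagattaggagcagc
TGACGTCA was in 1.79% of all windows. Dusp1 had 190 normalized reads in H1, 134 in H2, 173 in L1 and 89.0 in L2. L2, the highest library for Jun, Jund, Fos, Fosb, Fosl2 and Ier3, was the lowest for Dusp1. The groups overlapped, with a log2 fold change of 0.32 ± 0.45 (SE) and a DESeq2 adjusted p of 0.987 for Dusp1 in the authors' deposited table. Without L2 the value was -0.082.

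Over the 8 tested genes L2 was the highest library in 5 and H2 the lowest in 5, against 33.6% and 24.2% of the 8427 genes in the same range of means. H1 was the highest in the other 3, Junb, Ier2 and Dusp1. The genes share these 4 libraries, so their orders are not independent of one another.

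Divided by the length of the longest annotated transcript, the levels ran from Ier2 at 384 ± 93.7 normalized reads per kilobase (SD over all 4 libraries) through Jund at 272 ± 213, Junb at 97.5 ± 61.4, Dusp1 at 63.4 ± 19.4, Fos at 38.4 ± 25.6, Jun at 19.6 ± 14.9 and Ier3 at 16.6 ± 9.65. Fosl2 at 1.798 ± 1.31 and Fosb at 1.01 ± 0.71 were lowest. The ranges of neighbours in this order overlapped over the libraries, except that Ier3, at 7.76 to 29.5, lay above Fosl2, at 0.566 to 3.59. At this length Jund was above Junb and Junb above Jun in every library; at the median transcript length Junb, at 288, passed Jund, at 222, in H1, and the order was the same in the other 3. Jund made up 53.2%, 74.2%, 60.8% and 81.4% of the family's summed level per kilobase in H1, H2, L1 and L2, Junb 44.0%, 21.1%, 32.1% and 12.8%, and Jun 2.82%, 4.69%, 7.05% and 5.76%. The share of Junb was thus lowest in L2 and highest in H1, within groups that overlapped. Fos made up 89.8% to 94.9% of the FOS family. FOS transcripts were 5.76% to 12.2% of the FOS and JUN total per kilobase, lowest in H2. At the median transcript length these shares were 12.1% to 22.0%, again lowest in H2, and Jund made up 42.5%, 66.3%, 51.4% and 75.9% of the JUN family in H1, H2, L1 and L2. The mean levels were then 99.4 for Fos, above Dusp1 at 86.3, and 153 for Junb.

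**Figure D3:**
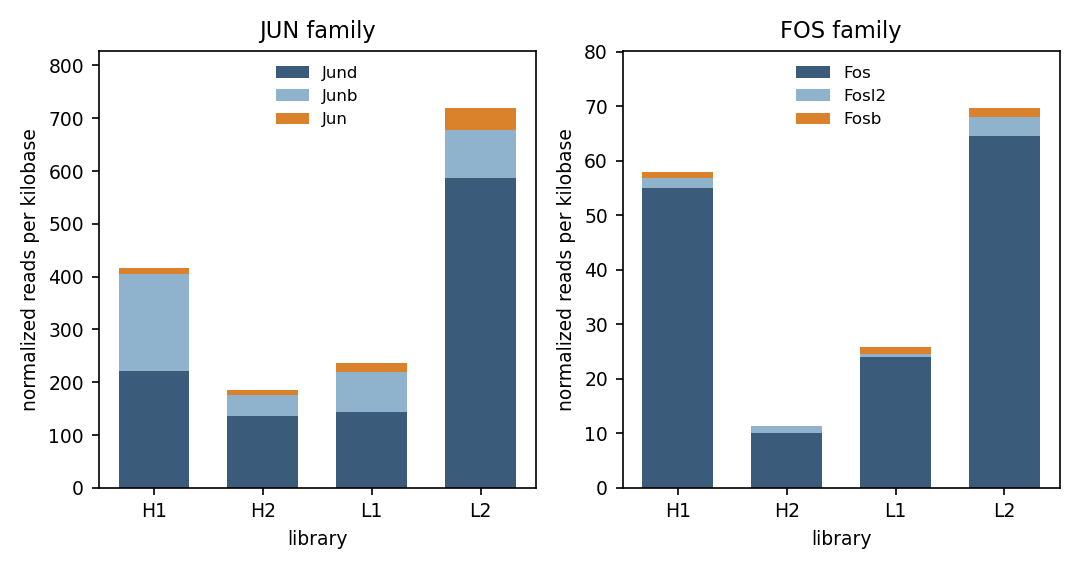
Normalized reads per kilobase of the longest transcript, stacked by gene, for the JUN family (left) and the FOS family (right) in the 4 libraries; both axes start at 0. At this length Jund is the largest part of every JUN bar and Fos of every FOS bar, and L2 and H1 exceed L1 and H2 in both panels.

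The wider pathway was followed in 5 lists with 120 genes analysed, 104 of them tested. Of the 104, a single gene in the authors' deposited table passed a DESeq2 adjusted p of 0.05, against 1.53% of all tested genes, and 10 had an unadjusted p under 0.05, 5 in each direction, against 8.82% of all tested genes. It was among 36 tested immediate early genes outside AP-1 (median log2 fold change -0.12). This gene was Pim1, a survival kinase also induced by LIF through STAT3, at 2262, 2131, 1521 and 849 normalized reads in H1, H2, L1 and L2. The authors' deposited table gives Pim1 a log2 fold change of 0.89 ± 0.26 (SE) with a DESeq2 adjusted p of 0.0488. Pim1 passed in the refit without L1 (1.37, adjusted p = 0.00569) and did not in those without L2 (0.53, adjusted p = 1), without H1 (0.85, adjusted p = 0.422) or without H2 (0.93, adjusted p = 0.261). Its adjusted p was also above 0.05 with library totals (0.0582), with no filter on low means (0.0688) and by voom (0.292).

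In 4 more genes of that list the unadjusted DESeq2 p was under 0.05, as in 8.82% of all tested genes, with no pass after adjustment. Their groups did not overlap, as in 41.3% of 14047 tested genes. In this list the Lncenc1-high libraries were both higher in 7 of 36 tested genes and the Lncenc1-low ones in 10. Btg2, an antiproliferative gene that p53 also induces, had 460, 526, 991 and 3195 normalized reads in H1, H2, L1 and L2. Plk2, a polo-like kinase likewise induced by p53, had 911, 790, 1529 and 4109. Ier5 had 43.6, 27.6, 53.0 and 142. As in Jun, L2 was far above L1 in all 3. For these, the authors' deposited table lists -2.09 ± 0.76 (SE) for Btg2, -1.73 ± 0.67 (SE) for Plk2 and -1.44 ± 0.63 (SE) for Ier5, with DESeq2 adjusted p of 0.199, 0.248 and 0.409. Without L2 they were -1.01, -0.85 and -0.56. Myc, a growth factor-induced regulator of growth, had the opposite order, at 85.7, 67.7, 24.6 and 27.2 normalized reads, with 1.57 ± 0.63 (SE) and a DESeq2 adjusted p of 0.288 in the authors' deposited table. Nfkbia, the inhibitor of NF-kB, had 0.51 ± 0.29 (SE), and the most abundant genes of the list, Sgk1, Tsc22d1 and Mcl1 had 0.34 ± 0.25, -0.20 ± 0.22 and -0.11 ± 0.22 (SE) in the authors' deposited table. Egr1, the other classical immediate early factor beside Fos, had 2, 0, 2 and 1 reads in H1, H2, L1 and L2, and was named after its values were seen.

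Among 8 tested MAP kinase phosphatases beside Dusp1, DESeq2 in the authors' deposited table called 0 (median -0.03), and voom called 0. Of all tested genes, DESeq2 called 1.53% and voom 0.0427%. At an unadjusted DESeq2 p under 0.05 there was 1, against 8.82% of all tested genes. That 1 was Dusp9, a phosphatase that keeps ERK activity low in stem cells, with 551, 260, 783 and 730 normalized reads in H1, H2, L1 and L2. Dusp9 stood at -0.89 ± 0.33 (SE), DESeq2 adjusted p 0.200, in the authors' deposited table. It passed in the refit without H1 (-1.54, adjusted p = 0.0442) and did not in the one without H2 (-0.46, adjusted p = 1). Dusp6, a feedback phosphatase of ERK, had 0.64 ± 0.37 (SE), Dusp16 0.71 ± 0.38 (SE), Dusp4 -0.60 ± 0.57 (SE) and Dusp14 0.48 ± 0.50 (SE) in the authors' deposited table. Dusp8 was not tested after filtering and had 0, 0, 2 and 21 reads in H1, H2, L1 and L2, at least 13.0-fold higher in the Lncenc1-low group against a floor of 3 reads over the other group, with most of those reads in L2.

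Among 19 tested bZIP partners and relatives of AP-1 (median 0.10) there were 0 calls by DESeq2 in the authors' deposited table and by voom. Of all tested genes, 1.53% were called by DESeq2 and 0.0427% by voom. At an unadjusted DESeq2 p under 0.05 there were 3, all higher in the Lncenc1-high group, as were 3.54% of all tested genes. Jdp2, a repressor that competes with FOS for JUN partners, was measured at 200 in H1, 157 in H2, 86.3 in L1 and 30.9 in L2, in normalized reads. Its log2 fold change was 1.61 ± 0.51 (SE) with a DESeq2 adjusted p of 0.0877 in the authors' deposited table, and it passed in the refit without L1 (2.53, adjusted p = 0.0198) and not in the one without L2 (1.05, adjusted p = 1). Jun and Jdp2 thus had their extreme values in the same library, L2, Jun the highest and Jdp2 the lowest. L2 was the highest library in 33.6% and the lowest in 28.2% of 8427 tested genes with means from 11.8 to 584 normalized reads. A link between Jun and Jdp2 was not tested. Cebpg had 0.61 ± 0.29 (SE) and the stress factor Atf4 0.44 ± 0.23 (SE) in the authors' deposited table. Nfe2l1, Nfe2l2, Atf2 and Creb3 had 0.41 ± 0.22, 0.12 ± 0.21, -0.30 ± 0.20 and -0.56 ± 0.35 (SE) in the authors' deposited table.

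The 29 tested kinases and factors upstream of FOS and JUN had a median of 0.02, with 0 calls by DESeq2 in the authors' deposited table and by voom. DESeq2 called 1.53% and voom 0.0427% of all tested genes. At an unadjusted DESeq2 p under 0.05 there was 1, against 8.82% of all tested genes. It was Map2k2, which codes for MEK2, a target of the MEK inhibitor in 2i. Map2k2 had 1246, 1109, 1672 and 1535 normalized reads in H1, H2, L1 and L2. Map2k2 stood at -0.44 ± 0.21 (SE), DESeq2 adjusted p 0.484, in the authors' deposited table. Itch, a ubiquitin ligase that degrades JUN proteins and was among the most abundant of the list, had -0.21 ± 0.20 (SE) in the authors' deposited table. Fbxw7, another ligase of JUN, had -0.36 ± 0.21 (SE), the serum response factor Srf -0.41 ± 0.25 (SE), its coactivator Mrtfb -0.49 ± 0.30 (SE), the p38 gene Mapk14 -0.30 ± 0.21 (SE) and Map2k6 0.59 ± 0.33 (SE) in the authors' deposited table.

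No call was made among 12 tested textbook AP-1 targets by voom, against 0.0427% of all tested genes. DESeq2 made none of them either (median -0.18), against 1.53% of all tested genes in the authors' deposited table. That table has 0 of them at an unadjusted DESeq2 p under 0.05, against 8.82% of all tested genes. Plaur, the urokinase receptor, had 59.6, 48.9, 64.1 and 148 normalized reads in H1, H2, L1 and L2, the same order as Jun. Its log2 fold change was -0.96 ± 0.56 (SE) in the authors' deposited table. Nqo1, Mt1, Mt2, Ezr, Vim and the cyclin gene Ccnd1 ranged from -0.56 to 0.22 in the authors' deposited table. Mmp9, too low to be tested, had 13, 4, 1 and 0 reads.

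**Figure D4:**
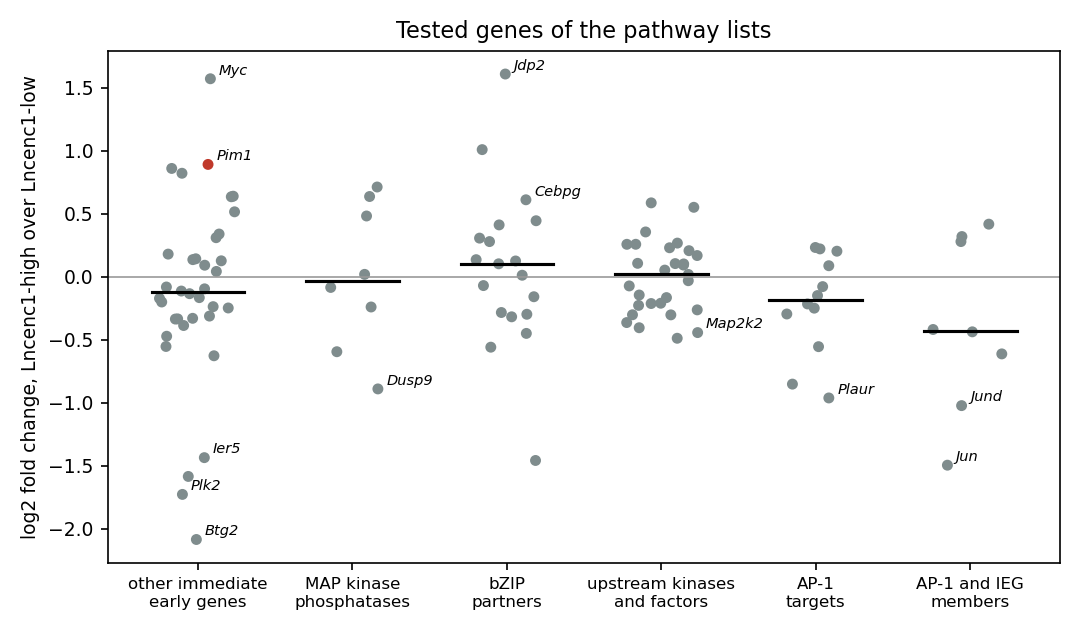
Deposited log2 fold change, Lncenc1-high over Lncenc1-low, of each tested gene of the 5 lists and of the 8 tested AP-1 and immediate early genes (right, IEG); points are genes, spread sideways at random, black lines are medians, and red marks an adjusted p under 0.05. Pim1 is the 1 red point, and the medians lie between -0.43 and 0.10.

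The genes whose pattern over the 4 libraries was nearest to that of Jun, by Euclidean distance of log2(normalized reads + 1) from each gene's own mean among 9710 genes with a mean of at least 100, included Ptk2b, Parp12, Dcxr and Plk2, at distances from 0.20 to 0.27. Ptk2b, a tyrosine kinase of the focal adhesion kinase family, had 81.1, 67.7, 127 and 271 normalized reads in H1, H2, L1 and L2. Of these, Parp12 and Dcxr had a DESeq2 adjusted p under 0.05, with log2 fold changes of -1.40 ± 0.37 and -1.46 ± 0.35 (SE) in the authors' deposited table. Nearest to Jund were Vwa5a, Slco5a1, Tenm1, Ly6a and Map1a, at 0.27 to 0.40, none with an adjusted p under 0.05 in the authors' deposited table. Vwa5a had 602, 432, 357 and 1790 normalized reads. With 4 libraries such a likeness describes these libraries alone.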

How the data were processed

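Per the labels' protocols, libraries were strand-specific and depleted of ribosomal RNA. The authors used TopHat2, HTSeq, DESeq2 1.8.2 and the build mm9 according to the submitters' processing notes. Settings, annotation and counting strand: not given in the sources used here. Per the file headers, the deposited table holds for each gene the mean normalized count over all libraries (a signal), the log2 fold change and its SE (log2), the Wald statistic (a score) and p-values, all computed by the authors with DESeq2. No replicate number is attached to any value.

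Counts per library were recovered as the whole numbers that, times 4 fixed steps read from recurring low means, give each mean to 15 significant digits. A single solution was taken if a refit gave the deposited fold change within 0.001 or expected reads were under 1, and one of several if within 0.00001 and 10 times nearer than the next. This gave 19817 of 19840 genes. The 23 left out, each with a mean of 2428 or more, account for 12.5% of the sum of means. The steps' group came from the sign of the fold change. Tested on simulated data, the recovery returned all 18827 genes right. These data were modelled on genes already recovered, without those of the highest means, and their fold changes came from the model that the refit uses. The test thus does not cover the genes of the highest means or those left out. The size factors are 1.95, 0.797, 0.811 and 0.809 for H1, H2, L1 and L2.

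The authors' adjusted p under 0.05 is the main test. Alternatives on 14042 recovered genes were negative binomial Wald refits, each gene's dispersion being that implied by the deposited SE (without each library, or with library totals) and limma 3.58.1 voom with TMM factors, with Benjamini-Hochberg adjustment. A lone library is assumed to vary like the others. The alternative with no filter on low means kept the deposited p-values and adjusted them over all 19840 genes. Intervals and floors (3 reads) cover counting error only. Symbols matched 19707 genes; lengths are from GENCODE M21 and promoter windows (250 bases before to 50 after a start) from RefSeq on GRCm38.p6, another build than the files', with no window for Ier2 and Fosl1. The genes and lists were chosen with earlier results of these data known. Named were all members and, of each list, those with an adjusted p under 0.05, the 6 with the smallest p and the 3 most abundant, plus the 5 nearest genes of Jun and Jund; some of these are not reported here. Tests used Python 3.11.15 and R 4.3.3.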

Additional observations from a re-analysis of the deposited data

How the results depend on the processing

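Of the 8 tested AP-1 and immediate early genes, none was called under any alternative run. Without 1 library each, the log2 fold changes ranged from -2.01 to -0.69 for Jun, -1.71 to 0.32 for Jund, -1.11 to 1.13 for Junb, -2.13 to 0.46 for Fos, -1.23 to 1.44 for Fosl2, -0.10 to 0.57 for Ier2, -1.38 to 0.28 for Ier3 and -0.082 to 0.87 for Dusp1. Jun alone kept its sign in all 4, but this was fixed in advance because its groups did not overlap. Groups did not overlap in 41.3% of 14047 tested genes. The sign of 5 turned without L2, of 2 without H1 and of 1 without H2, and no cause of this was tested. Voom turned Fosl2, the least abundant tested, to 0.086. Library totals turned none. At an unadjusted p under 0.05 there were 0 of the 8 by voom, against 1 in the authors' deposited table, where 8.82% of all tested genes were. The share of all genes under that p by voom is not given here, so this count is not a result about the 8. Of the genes in the 5 lists, 0 to 2 were called without 1 library each, and 0 with library totals, by voom and with no filter on low means, against 1. Over all genes 45 to 193 were called without 1 library each and 6 by voom, against 215; the cause was not tested. The median transcript length gave Fos 99.4, Fosl2 3.39, Dusp1 86.3 and Junb 153 normalized reads per kilobase. With a pseudocount of 10, 3 of the 5 genes nearest to Jun were the same. Fosb could not be fitted in the alternatives that use the tested genes. No paired analysis was possible because the recovered libraries carry no replicate number. Fosb, Fosl2 and Ier3 had at most 40 reads in any library, which limits the precision of their values.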
